A study of Mus musculus with 3 samples.

Results

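The regions described here were the homocysteinylation peaks that contained the start of a protein-coding gene. They were taken from 2 ChIP-seq peak lists of NE4C cells, an established mouse neural stem cell line, and were chosen by position alone: a peak was included when the outermost start of a gene annotated as protein-coding in GENCODE M1 (genome build mm9) lay inside it. Of the 7387 peaks called with the antibody to H3K79Hcy (homocysteinylated lysine 79 of histone H3), 88 met this rule. Of the 7300 peaks called with the antibody to homocysteinylated lysine in general (KHcy), 204 met it. A list of 19339 peaks from an antibody to H3K4me3 (histone H3 trimethylated at lysine 4) in the same cells was used for comparison. The H3K79Hcy list used here is slightly longer, and the H3K4me3 list much longer, than the study reports. The study examined how homocysteine bound to histones is placed along the genome of neural cells, with H3K4me3 as the known mark of promoters. The labels name no treatment and no genotype beyond the cell line, and all 3 libraries come from this line grown on poly-L-lysine. There was 1 library per antibody, so no difference here has a replicate check, no test across libraries was possible, and the 95% Wilson intervals given for shares cover counting error only.

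Homocysteine is a sulfur amino acid made from methionine. Its cyclic form, homocysteine thiolactone, can react with the side chain of lysine without an enzyme, and histones rich in lysine are among the proteins that carry the product. Trimethylation of H3K4 is laid down at the starts of genes that are active or poised, most densely at promoters rich in CpG dinucleotides (CpG islands). The start of transcription itself usually lies in a gap between nucleosomes, with the flanking nucleosomes carrying the mark. Repeated DNA is hard to place in such data, because a short read from it matches many positions.

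The 250 bases before 11 gene starts are shown first, since the covered starts differed in their CpG content and in how far their sequence recurs in the genome. Each sequence is read 5′ to 3′ on the strand of the gene from the mm9 genome and ends at the base before the start, with every CG dinucleotide in capitals. The first set holds 4 starts that lay in peaks of both homocysteinylation lists and in an H3K4me3 peak. These are Clcn4-2, a chloride transporter (chr7:7252223-7252472, minus strand), Cd244, a receptor of natural killer cells (chr1:173489074-173489323, plus strand), Hist4h4, a histone H4 gene (chr6:136752901-136753150, minus strand), and Itln1, a lectin of the gut (chr1:173465426-173465675, minus strand). They held 24, 2, 6 and 0 CG dinucleotides.
Clcn4-2: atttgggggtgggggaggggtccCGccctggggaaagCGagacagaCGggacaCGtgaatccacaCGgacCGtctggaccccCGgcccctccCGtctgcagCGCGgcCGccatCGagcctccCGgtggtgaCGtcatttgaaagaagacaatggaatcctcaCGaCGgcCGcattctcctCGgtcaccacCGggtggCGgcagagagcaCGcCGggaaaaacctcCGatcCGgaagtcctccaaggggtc
Cd244: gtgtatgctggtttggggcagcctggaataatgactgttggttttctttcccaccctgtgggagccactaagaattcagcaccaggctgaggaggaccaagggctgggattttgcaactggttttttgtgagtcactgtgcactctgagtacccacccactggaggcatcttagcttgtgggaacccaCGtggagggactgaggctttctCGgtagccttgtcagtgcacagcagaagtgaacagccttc
Hist4h4: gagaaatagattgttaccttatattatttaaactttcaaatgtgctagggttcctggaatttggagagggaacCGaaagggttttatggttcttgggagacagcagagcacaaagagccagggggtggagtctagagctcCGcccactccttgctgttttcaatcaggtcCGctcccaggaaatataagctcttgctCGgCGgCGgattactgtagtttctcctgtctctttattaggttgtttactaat
Itln1: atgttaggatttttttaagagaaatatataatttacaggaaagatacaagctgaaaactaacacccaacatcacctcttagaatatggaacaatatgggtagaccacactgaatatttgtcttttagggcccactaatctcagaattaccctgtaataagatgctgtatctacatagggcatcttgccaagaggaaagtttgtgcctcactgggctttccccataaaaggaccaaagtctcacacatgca

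The second set holds 4 starts that lay in both homocysteinylation lists but in no H3K4me3 peak. These are Ifi202b, an interferon-inducible gene (chr1:175912976-175913225, minus strand), Ccr3, a chemokine receptor (chr9:123936453-123936702, plus strand), Snapc5, a subunit of the complex that starts transcription of small nuclear RNAs (chr9:64026854-64027103, plus strand), and Grcc10 (chr6:124691393-124691642, minus strand). They held 3, 0, 11 and 10 CG dinucleotides. In Grcc10 the stretch also held 2 copies of CCAAT, counted on both strands.
Ifi202b: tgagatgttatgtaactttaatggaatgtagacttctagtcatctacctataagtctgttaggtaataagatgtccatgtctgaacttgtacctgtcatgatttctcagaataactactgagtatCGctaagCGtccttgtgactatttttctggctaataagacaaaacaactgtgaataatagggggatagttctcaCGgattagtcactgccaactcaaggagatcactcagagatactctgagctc
Ccr3: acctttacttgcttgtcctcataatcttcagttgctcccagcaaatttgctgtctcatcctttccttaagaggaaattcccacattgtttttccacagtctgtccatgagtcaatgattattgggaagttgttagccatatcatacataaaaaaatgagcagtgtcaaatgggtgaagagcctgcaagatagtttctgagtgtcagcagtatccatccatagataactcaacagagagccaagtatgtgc
Snapc5: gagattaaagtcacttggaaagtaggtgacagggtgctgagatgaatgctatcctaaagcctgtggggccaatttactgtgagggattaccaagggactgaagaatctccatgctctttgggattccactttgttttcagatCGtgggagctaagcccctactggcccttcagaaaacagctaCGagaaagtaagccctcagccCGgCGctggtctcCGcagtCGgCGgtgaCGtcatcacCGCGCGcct
Grcc10: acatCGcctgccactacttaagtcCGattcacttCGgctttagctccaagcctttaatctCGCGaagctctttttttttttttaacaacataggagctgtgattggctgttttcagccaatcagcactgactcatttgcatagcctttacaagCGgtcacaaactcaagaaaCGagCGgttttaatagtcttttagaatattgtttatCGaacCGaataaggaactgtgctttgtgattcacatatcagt

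The last set was chosen after the values had been seen. Sox17, a transcription factor of endoderm and blood vessels (chr1:4486495-4486744, minus strand), is a developmental regulator covered in all 3 lists, with 8 CG dinucleotides. Cdkn1b, the cell cycle inhibitor p27 (chr6:134870169-134870418, plus strand), is shown as a CpG-rich start covered by KHcy and H3K4me3 but not by H3K79Hcy, with 28. Gm10722 (chr9:3000672-3000921, plus strand), a predicted gene with 5, is shown as an example of repeated sequence.
Sox17: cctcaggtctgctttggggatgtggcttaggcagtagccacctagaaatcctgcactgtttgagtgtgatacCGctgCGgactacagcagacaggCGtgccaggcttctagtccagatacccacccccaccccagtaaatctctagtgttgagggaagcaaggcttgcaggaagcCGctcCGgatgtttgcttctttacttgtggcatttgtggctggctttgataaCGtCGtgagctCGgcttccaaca
Cdkn1b: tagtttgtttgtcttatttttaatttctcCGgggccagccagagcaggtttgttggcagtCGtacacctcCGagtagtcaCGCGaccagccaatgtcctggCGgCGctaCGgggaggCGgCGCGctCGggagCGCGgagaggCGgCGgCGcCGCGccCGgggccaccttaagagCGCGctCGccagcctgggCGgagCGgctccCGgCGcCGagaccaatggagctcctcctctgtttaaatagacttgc
Gm10722: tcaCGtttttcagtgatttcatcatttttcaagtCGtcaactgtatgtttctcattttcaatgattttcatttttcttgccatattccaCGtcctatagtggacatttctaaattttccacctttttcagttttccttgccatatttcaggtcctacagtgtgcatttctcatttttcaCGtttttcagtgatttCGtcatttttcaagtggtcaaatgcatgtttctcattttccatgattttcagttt

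The 88 H3K79Hcy peaks held 93 of 22380 annotated protein-coding starts (0.416%), and the 204 KHcy peaks held 223 (0.996%). In the same cells 1211 starts (5.41%) lay in H3K4me3 peaks. The peaks at gene starts were therefore a small part of each homocysteinylation list, at 1.19% of all H3K79Hcy peaks (interval 0.968 to 1.47%) and 2.79% of all KHcy peaks (2.44 to 3.20%). Together the lists covered 275 different starts. H3K79Hcy peaks covered 0.342% of the nuclear genome outside assembly gaps, KHcy peaks 0.592% and H3K4me3 peaks 1.61%.

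Whether gene starts were covered more often than their surroundings was read from the share of nuclear starts with a peak at each distance from the start. H3K79Hcy showed no rise at the start itself. A peak lay over 0.389% of the 22367 nuclear starts (0.315 to 0.479%), compared with a mean of 0.398% at 10 to 20 kb on either side, a ratio of 0.978. Within 5 kb the share was lowest 600 bp before the start, at 0.237%, and highest 200 bp after it, at 0.407%. KHcy rose modestly over gene starts. Its share was 0.970% at the start (0.850 to 1.11%) against 0.747% at 10 to 20 kb, a ratio of 1.30, with the highest value of 1.02% at 400 bp into the gene and the lowest within 5 kb at 3000 bp before the start, 0.487%. H3K4me3 showed a larger rise, from 2.05% in the flanks to 9.56% at 900 bp after the start, with 5.41% at the start itself.

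**Figure D1:**
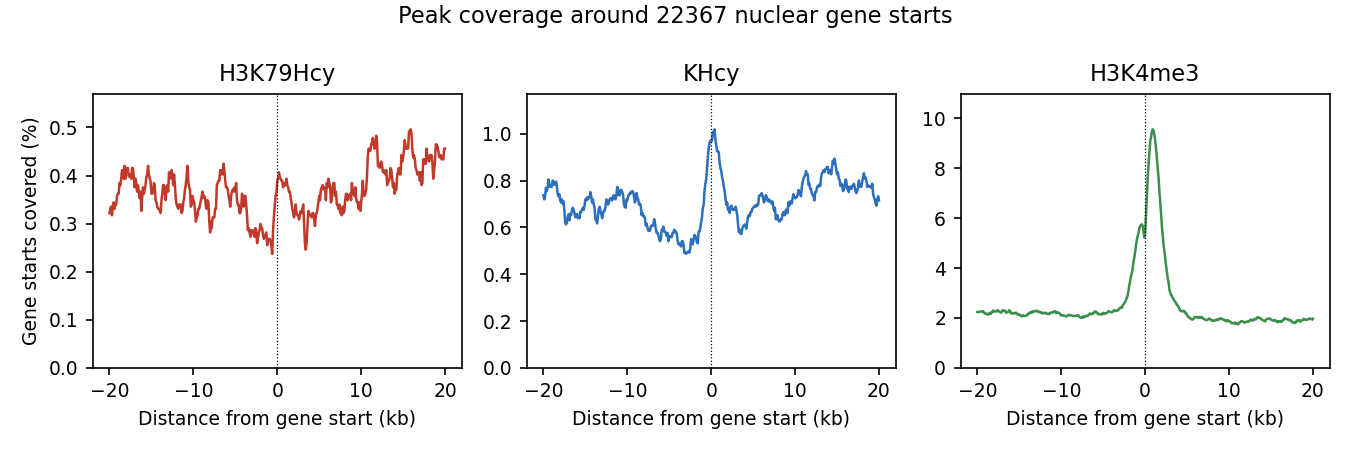
Share of 22367 nuclear protein-coding gene starts (vertical axis, percent) that have a peak at each distance from the start (horizontal axis, kb, in the direction of transcription) for the 3 peak lists. H3K79Hcy dips to 0.237% at 600 bp before the start and is at 0.389% at the start, KHcy rises to 1.02% just after the start, and H3K4me3 peaks at 9.56% at 900 bp with a dip at the start.

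The covered starts were unevenly spread over the chromosomes, as were the peaks of both lists. Chromosomes 1, 2, 3, 5, 6, 9 and 11 carry 42.6% of the protein-coding starts, and held 74 of the 88 H3K79Hcy peaks at gene starts (84.1%) and 156 of the 204 KHcy peaks (76.5%). The same 7 chromosomes held 77.1% of all H3K79Hcy peaks and 77.7% of all KHcy peaks. Chromosome 9 contributed the most, with 23 H3K79Hcy and 32 KHcy peaks at gene starts, followed by chromosome 1 with 18 for H3K79Hcy and by chromosome 5 with 26 for KHcy. No gene start was covered in either list on chromosomes 12, 13, 18 or X, where the lists held 9 to 34 peaks each. Shares of covered starts are therefore given below also against starts within 50 kb of a peak of the same list but outside it, a comparison added after the data had been seen.

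Strength was described by the fold, that is, how many times the reads of a peak exceeded those its width would hold at the library's background. Per window of 200 bp this background was 1.59 reads for H3K79Hcy, 1.49 for KHcy and 1.38 for H3K4me3. At gene starts the H3K79Hcy peaks had a median of 26.5 reads, a median width of 1200 bp and a median fold of 2.98 (quartiles 2.60 and 3.90). The KHcy peaks there had a median of 34.5 reads, a width of 2200 bp and a fold of 2.30 (2.08 and 2.69). Other peaks of the same lists had median folds of 2.69 and 2.24. Most peaks at gene starts were thus weak, resting on few reads above background, and the strongest ones belonged to a different kind of sequence.

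Peaks were separated by how much of their sequence recurs, measured as the share of their 31-base words that occur more than once in the genome on either strand. Peaks with at most 10% of such words are called single-copy here, and the others repeated. The label refers to the mm9 sequence and does not measure the number of copies in these cells. Among the H3K79Hcy peaks at gene starts 62 were single-copy, 24 were repeated and 2 lay on the mitochondrial genome. Among the KHcy peaks 176 were single-copy, 26 were repeated and 2 were mitochondrial. The share of single-copy peaks was 70.5% (60.2 to 78.97%) for H3K79Hcy at gene starts and 83.3% elsewhere in that list, and it was 86.3% (80.9 to 90.3%) for KHcy at gene starts and 84.4% elsewhere. Median folds were 2.76 and 2.27 in the single-copy peaks of H3K79Hcy and KHcy, but 7.18 and 4.08 in the repeated ones. Of the 17 H3K79Hcy peaks at gene starts with a fold above 5, 14 were repeated or mitochondrial, and for KHcy it was 14 of 16.

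**Figure D2:**
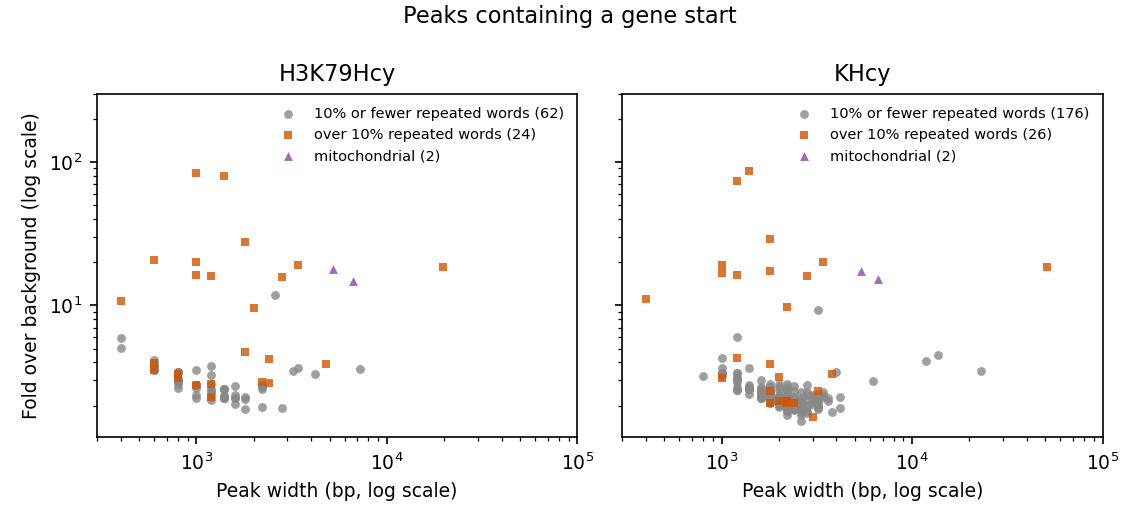
Fold over background (vertical axis, log scale) against peak width (horizontal axis, bp, log scale) for the 88 H3K79Hcy and 204 KHcy peaks that contain a gene start, with single-copy, repeated and mitochondrial peaks marked separately. Single-copy peaks have median folds of 2.76 and 2.27, while the highest folds, 83.5 for H3K79Hcy and 86.5 for KHcy, belong to repeated sequence.

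The single-copy H3K79Hcy peaks with a fold above 5 covered 4931408C20Rik (fold 11.9), Clcn4-2 (5.97) and C030030A07Rik (5.02), the last with 16 reads only. For KHcy they covered 4931408C20Rik (9.34) and Fasl (6.06, 54 reads), which encodes the ligand that triggers death of cells bearing the Fas receptor. The Fasl start lay in no H3K79Hcy and no H3K4me3 peak. Clcn4-2 was single-copy in its H3K79Hcy peak, with 6.22% repeated words, and repeated in its wider KHcy peak, with 22.1%.

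The highest folds of both lists lay at the starts of Gm10801 and Gm10800, predicted genes 5064 bp apart on chromosome 2. Gm10801 had 665 reads in the H3K79Hcy peak, 658 in the KHcy peak and 657 in the H3K4me3 peak, and folds of 83.5, 73.8 and 95.2. Gm10800 had 896, 900 and 908 reads and folds of 80.4, 86.5 and 93.9. The read numbers were nearly the same with each antibody. A row of 9 predicted genes at the beginning of chromosome 9, from Gm10722 at position 3000922 to Gm10715 at position 3037111, was likewise covered in all 3 lists. Gm10722 had 394, 389 and 426 reads, and folds over the 9 starts ran from 9.61 to 27.5 for H3K79Hcy, from 9.79 to 29.1 for KHcy and from 11.8 to 34.3 for H3K4me3. Of the H3K79Hcy and KHcy peaks at Gm10722, 80.5% of the words recurred. Input chromatin was not analysed here, so these levels cannot be told apart from those of unprecipitated DNA.

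The widest peak of both lists lay at the start of Sfi1, a centrosome protein gene on chromosome 11, where H3K79Hcy extended over 19600 bp with a fold of 18.4 and KHcy over 51200 bp with a fold of 18.6. H3K4me3 covered the same start with a fold of 35.1. After Sfi1, the widest H3K79Hcy peaks with a start were the peak of 7200 bp at Heatr7b1 and the mitochondrial peak of 6600 bp. For KHcy they were the peak of 23000 bp at Heatr7b1 and that of 13600 bp at Ugt1a1, the enzyme that conjugates bilirubin. The wide peaks at Heatr7b1 and Ugt1a1 were single-copy, whereas those at Sfi1 were repeated.

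On the mitochondrial genome, which carries no histones, 6 of the 13 protein-coding starts were covered in both lists. A peak over mt-Nd1, mt-Nd2 and mt-Co1 had 777 reads for H3K79Hcy and 744 for KHcy (folds of 14.8 and 15.2). A peak over mt-Nd5, mt-Nd6 and mt-Cytb had 745 and 693 (17.99 and 17.3). The H3K4me3 list holds no peak on the mitochondrial genome. Between the 2 homocysteinylation lists the Poisson intervals of the fold overlapped at all 6 starts.

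The starts covered by both homocysteinylation lists numbered 41, which was 44.1% of the H3K79Hcy starts (34.4 to 54.2%) and 18.4% of the KHcy starts (13.9 to 24.0%). For comparison, 0.996% of all starts lay in a KHcy peak and 0.416% in an H3K79Hcy peak. Among starts within 50 kb of an H3K79Hcy peak but outside it, 2.20% lay in a KHcy peak, and among starts so placed around KHcy peaks 0.747% lay in an H3K79Hcy peak. At 33 of the 41 starts the H3K79Hcy peak lay wholly within the KHcy peak, and at 12 the peaks had the same ends. By kind, 20 of the shared starts were repeated in at least 1 of the lists, 6 were mitochondrial and 15 were single-copy in both. Repeated and mitochondrial sequence thus made up the larger part of what the lists shared at gene starts.

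**Figure D3:**
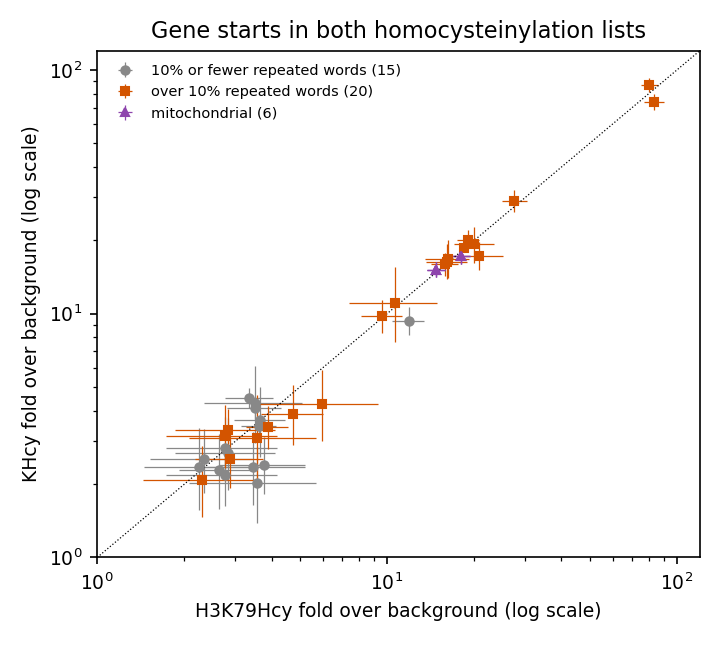
Fold over background in the KHcy list (vertical axis) against fold in the H3K79Hcy list (horizontal axis), both on log scales, for the 41 gene starts covered in both lists, with 95% Poisson intervals from the reads of each peak and a dotted line of equal fold. The 20 repeated and 6 mitochondrial starts follow the line up to folds above 70, while 14 of the 15 single-copy starts lie below a fold of 5 in both lists.

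The fold was alike in both lists at most shared starts. The KHcy fold was 1.01 times the H3K79Hcy fold in the median of the 20 repeated starts (range 0.714 to 1.18), 0.993 times at the mitochondrial starts and 0.963 times at the 15 single-copy starts (0.567 to 1.34). Intervals of the fold from both lists were apart at 1 of the 41 starts, Ugt1a1, where H3K79Hcy had 3.35 (2.76 to 4.03) and KHcy 4.50 (4.10 to 4.94). Over all 41 starts the Spearman correlation of the folds was 0.925, and over the 15 single-copy starts it was 0.429. These are descriptions across starts of the same 2 libraries, and several of the starts share a peak or a repeat.

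Of the 15 single-copy starts in both lists, 4 formed separate pairs of neighbours on chromosome 1. Ugt1a1 and Heatr7b1 lie 15.0 kb apart, and Itln1 and Cd244 lie 23.9 kb apart. H3K79Hcy folds at these 4 starts were 3.35, 3.61, 3.49 and 3.66, KHcy folds were 4.50, 3.48, 4.12 and 3.65, and all 4 lay in wide H3K4me3 peaks with folds of 6.15, 6.15, 5.51 and 4.85. Ugt1a1 and Heatr7b1 fell in the same H3K4me3 peak of 52800 bp. The start of 4931408C20Rik, also on chromosome 1, had the highest single-copy folds, at 11.9, 9.34 and 10.7, with 246, 222 and 192 reads. Without input, the levels at these single-copy starts likewise cannot be told apart from those of unprecipitated DNA.

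Elsewhere, Kat5 encodes the histone acetyltransferase Tip60. Its start (position 5610050 of chromosome 19, minus strand) had 22 reads and a fold of 3.45 (2.16 to 5.23) for H3K79Hcy, 35 reads and 2.36 (1.64 to 3.28) for KHcy, and 38 reads and 2.50 (1.77 to 3.43) for H3K4me3. Hist4h4 had 28, 32 and 32 reads in the same order and folds of 3.52, 4.31 and 3.86. Alad, an enzyme of heme synthesis, had folds of 3.77, 2.40 and 3.09. At each of these genes the 3 intervals overlapped.

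The start of Sox17 had 22 reads and a fold of 2.76 (1.73 to 4.18) for H3K79Hcy, 52 reads and 2.19 (1.63 to 2.87) for KHcy, and 80 reads and 3.41 (2.70 to 4.24) for H3K4me3. Hoxb6, a homeobox gene of the trunk, had 46, 34 and 46 reads and folds of 2.63, 2.29 and 3.03. Both starts lay in peaks of low fold in all 3 lists. In the H3K79Hcy list the Sox17 peak ran over 1000 bp with 506 bp before the start, while in the other lists it was wider, at 3200 bp for KHcy and 3400 bp for H3K4me3.

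The remaining single-copy starts in both lists lay in no H3K4me3 peak. Ccr3 had folds of 2.76 for H3K79Hcy and 2.81 for KHcy, Snapc5 had 2.83 and 2.69, and Grcc10 had 2.33 and 2.52. Crisp4, a secreted protein of the male reproductive tract, had 2.24 and 2.36. Olfr986, an odorant receptor, had 3.56 and 2.02. These 5 are covered by weak peaks of 17 to 46 reads. Counting all kinds, 12 of the 41 shared starts lay outside H3K4me3 peaks: these 5, Ifi202b and the 6 mitochondrial ones. At Ifi202b only the start lay outside, since its H3K79Hcy peak shared 400 bp and its KHcy peak 2200 bp with H3K4me3 peaks.

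Most covered starts were in 1 homocysteinylation list only. H3K79Hcy alone covered 52 starts, of which 10 were in H3K4me3 peaks (19.2%, 10.8 to 31.9%), and KHcy alone covered 182, of which 51 were (28.0%, 22.0 to 34.9%). Examples were chosen after their values had been seen. Of the starts covered by H3K79Hcy alone, those in H3K4me3 peaks included Mcm10, a DNA replication factor (H3K79Hcy fold 2.39), and Rad18, a ubiquitin ligase of DNA damage tolerance (2.26). Those outside H3K4me3 peaks were of mixed kinds, among them the cytokine Il17f (3.56 from 17 reads), the platelet collagen receptor Gp6 (2.30), Hexim1, an inhibitor of the elongation factor P-TEFb (2.24), and Qsox1, which forms disulfide bonds (1.94). Of the starts covered by KHcy alone, those in H3K4me3 peaks included Msx1, a homeobox gene (KHcy fold 2.27), Lfng, a modifier of Notch (3.03), Mitf, the regulator of pigment cells (1.81), and Col2a1, the collagen of cartilage (2.69). Their H3K4me3 folds were 2.75, 3.38, 2.24 and 2.82. The estrogen receptor gene Esr1 (2.36) and Tbx21, a regulator of T helper cells (2.69), lay in KHcy peaks and in no H3K4me3 peak.

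Overlap with H3K4me3 was compared first by gene start. H3K4me3 peaks contained 39 of the 93 starts in H3K79Hcy peaks (41.9%, 32.4 to 52.1%) and 80 of the 223 in KHcy peaks (35.9%, 29.9 to 42.4%). Of all starts 5.41% were in H3K4me3 peaks, of starts outside both homocysteinylation lists 5.07%, and of starts within 50 kb of a peak but outside it 11.1% for H3K79Hcy and 11.2% for KHcy. In both lists the share in H3K4me3 peaks was thus higher for covered starts than for their neighbours. Several covered starts share a peak or a repeat, which the intervals do not take into account. In single-copy peaks the shares were 28.6% (18.9 to 40.7%) and 32.5% (26.2 to 39.4%), and of the 24 starts in repeated H3K79Hcy peaks 21 were in H3K4me3 peaks. Conversely, the homocysteinylation lists held few of the H3K4me3 starts, at 3.22% of the 1211 for H3K79Hcy and 6.61% for KHcy.

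By peak, 43 of the 88 H3K79Hcy peaks at gene starts shared 1 bp or more with an H3K4me3 peak (48.9%, 38.7 to 59.1%), compared with 15.4% of all H3K79Hcy peaks. For KHcy it was 113 of 204 (55.4%, 48.5 to 62.1%), compared with 16.5% of all KHcy peaks. Among single-copy peaks only, 32.3% of the H3K79Hcy peaks at gene starts (22.0 to 44.6%) and 9.64% of those elsewhere overlapped H3K4me3, and for KHcy it was 52.3% (44.9 to 59.5%) and 10.6%. The higher share at gene starts was therefore present in single-copy sequence in both lists. Within classes of width the difference was also seen. Of peaks up to 1000 bp, 47.4% of the H3K79Hcy peaks at gene starts and 14.2% of the others overlapped, and of KHcy peaks over 1000 and up to 2000 bp, 53.9% and 13.2%. Above 3000 bp the H3K79Hcy shares were 77.8% of 9 peaks and 92.9% of the others.

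For KHcy peaks at gene starts, overlap with the other homocysteinylation list was lower than overlap with H3K4me3. For H3K79Hcy peaks the shares with KHcy and with H3K4me3 were close, and their intervals overlapped. Counted by start, 44.1% of the H3K79Hcy starts lay in KHcy peaks and 41.9% in H3K4me3 peaks. Of the H3K79Hcy peaks at gene starts 40 (45.5%, 35.5 to 55.8%) overlapped a KHcy peak, compared with 13.9% of all H3K79Hcy peaks, and of the KHcy peaks at gene starts 48 (23.5%, 18.2 to 29.8%) overlapped an H3K79Hcy peak, compared with 12.9% of all KHcy peaks. Among single-copy peaks the shares were 27.4% (17.9 to 39.6%) at gene starts and 9.74% elsewhere for H3K79Hcy. For KHcy they were 15.3% (10.8 to 21.4%) and 8.72%. Single-copy KHcy peaks at gene starts thus overlapped H3K4me3 peaks, at 52.3%, more often than H3K79Hcy peaks. The H3K4me3 list is also the longer one, covering 41.2 Mb against 8.76 Mb. Peaks at gene starts that overlapped neither other list numbered 37 for H3K79Hcy (42.0%) and 82 for KHcy (40.2%), and those that overlapped both numbered 32 and 39. The same counts over all peaks are not given here. Of all peaks only 15.4% (H3K79Hcy) and 16.5% (KHcy) overlapped H3K4me3, and 13.9% and 12.9% the other homocysteinylation list. Most peaks of each list therefore overlapped neither other list.

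**Figure D4:**
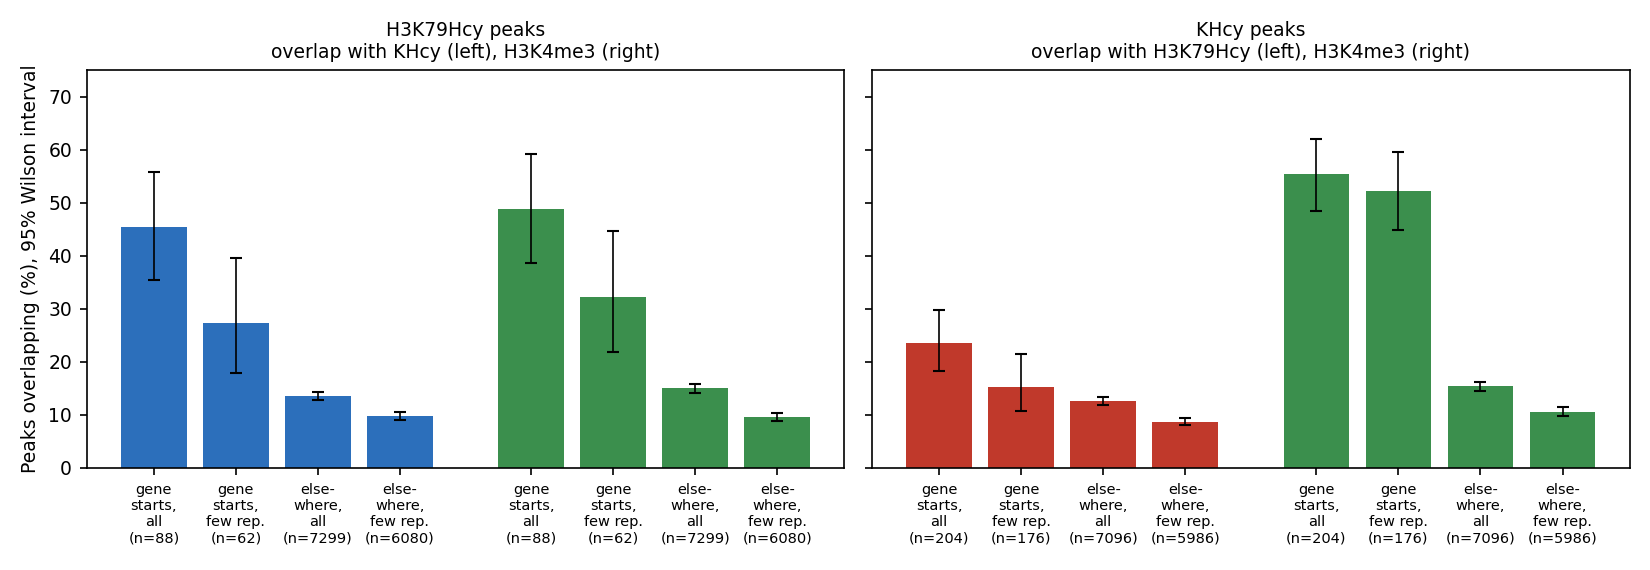
Share of H3K79Hcy peaks (left panel) and KHcy peaks (right panel) that overlap a peak of the other lists (vertical axis, percent), for peaks at gene starts and elsewhere, each for all peaks and for single-copy peaks (few rep.). Blue bars show overlap with KHcy, red bars with H3K79Hcy and green bars with H3K4me3, and lines are 95% Wilson intervals. All bars for gene starts exceed the matching bar for peaks elsewhere.

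At starts inside H3K79Hcy peaks the H3K4me3 peaks had a median fold of 5.41, and at starts inside KHcy peaks 3.01. At starts outside both lists the median was 2.57, with a highest value of 5.40. The H3K4me3 fold was above that value at 20 starts, and 16 of these were in repeated sequence. That all 20 lay in a homocysteinylation peak follows from how the value was defined. The 4 single-copy ones were 4931408C20Rik, Ugt1a1, Heatr7b1 and Itln1. Of the 39 starts behind the median of 5.41, 21 lay in repeated H3K79Hcy peaks. Over the 29 starts in all 3 lists, the Spearman correlation with the H3K4me3 fold was 0.899 for H3K79Hcy and 0.935 for KHcy. Over the 10 single-copy ones it was 0.444 and 0.784.

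The covered starts of the lists differed in CpG content. A start was called CpG-rich when the 1000 bp on each side had an observed over expected CpG ratio of at least 0.75 and a GC content of at least 55%, which held for 2188 of all starts (9.78%). None of the 93 starts in H3K79Hcy peaks was CpG-rich, which allows a share of up to 3.23%. Of these starts 3 passed the limit on the CpG ratio and 12 that on GC content, but none passed both. In KHcy peaks 30 of 223 were (13.5%, 9.59 to 18.6%), an interval that includes the share over all starts. Around H3K79Hcy peaks, 10.3% of the starts within 50 kb but outside them were CpG-rich, so the absence was not shared by neighbouring starts. The median CpG ratio was 0.416 at starts in H3K79Hcy peaks, 0.597 in KHcy peaks, 0.605 in H3K4me3 peaks and 0.468 over all starts, and the median GC content was 45.3%, 51.1%, 53.1% and 51.2%. The H3K79Hcy and KHcy medians include starts in repeated and mitochondrial peaks.

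**Figure D5:**
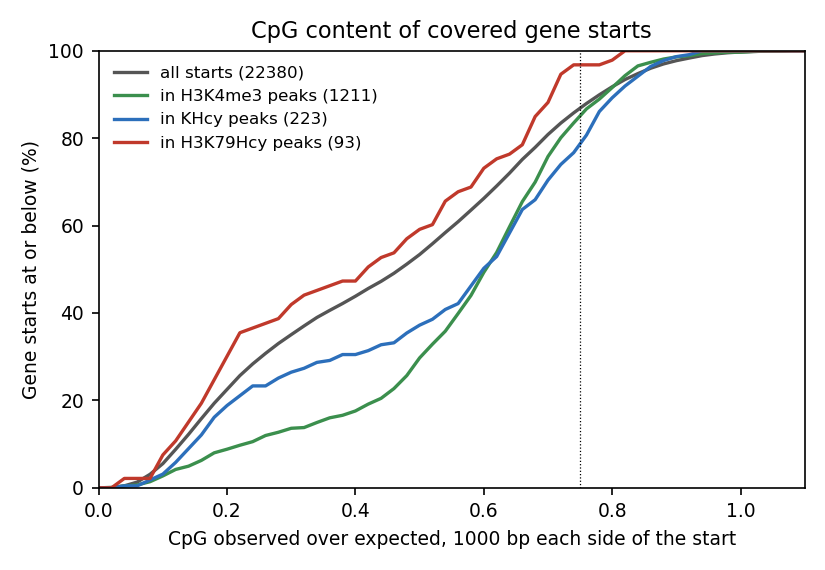
Cumulative share of gene starts (vertical axis, percent) at or below each observed over expected CpG ratio in the 1000 bp on each side (horizontal axis), for all 22380 starts and for those in H3K79Hcy, KHcy and H3K4me3 peaks. The dotted line marks the limit of 0.75. The H3K79Hcy curve lies to the left of the others at high ratios, and the medians are 0.416 for H3K79Hcy, 0.597 for KHcy and 0.605 for H3K4me3.

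At the first limits 9.58% of the starts in H3K4me3 peaks were CpG-rich, a lower share than in KHcy peaks. With looser limits H3K79Hcy kept the lowest share, while KHcy fell below H3K4me3. With 500 bp on each side, 5.38% of the H3K79Hcy starts, 29.6% of the KHcy starts, 32.0% of the H3K4me3 starts and 24.9% of all starts were CpG-rich. With limits of 0.6 and 50%, the shares were 10.8% (5.95 to 18.7%), 38.1% (32.0 to 44.6%), 42.4% and 29.8%. In the single-copy peaks of H3K79Hcy 0 of 63 starts were CpG-rich at the first limits. At CpG-rich starts the H3K4me3 list itself had a gap, with 5.30% covered at the start and 20.6% at 1300 bp into the gene, while KHcy covered 1.37% of these starts and 0.799% of the positions 10 to 20 kb away. The depth of input reads at CpG-rich starts was not analysed here, and its part in these shares was not tested.

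The stretch of 250 bases before the start, as printed above for 11 genes, was searched on both strands for letters found in many promoters. GGGCGG, the core of the GC box, occurred before 16.1% of the 87 nuclear starts in H3K79Hcy peaks (9.83 to 25.2%), 36.4% in KHcy peaks, 48.6% in H3K4me3 peaks and 39.6% of all nuclear starts. CCAAT occurred before 39.1%, 37.3%, 31.6% and 35.0% in the same order. TATAAA occurred before 11.5%, 17.1%, 8.67% and 12.3%. The median number of CG dinucleotides was 5 for H3K79Hcy, 11 for KHcy, 14 for H3K4me3 and 8 for all. Of the 87 H3K79Hcy starts, 24 lay in repeated peaks, and these values are not given for single-copy starts alone. Of the 11 stretches printed, Clcn4-2, Cdkn1b and Hist4h4, with 24, 28 and 6 CG dinucleotides, hold GGGCGG, and Itln1 and Ccr3 hold no CG.

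The CpG-rich starts in KHcy peaks included genes used by most cells and regulators of growth and development. Of the genes with the role named, Ran drives transport into the nucleus, Cfl1 severs actin filaments, Cdk12 is a kinase of RNA polymerase II, Cbx2 is a Polycomb protein, Kdm5a removes methyl groups from H3K4, and Cdkn1b restrains the cell cycle. KHcy folds were 2.12 at Ran, 2.09 at Cfl1, 2.83 at Cdk12, 2.08 at Cbx2, 2.08 at Kdm5a and 2.31 at Cdkn1b. Of these 6 starts, Cdk12, Kdm5a and Cdkn1b also lay in H3K4me3 peaks, and 9 of all 30 did (interval 16.7 to 47.9%). For comparison, 5.30% of all CpG-rich starts and 36.8% of the other starts in KHcy peaks lay in H3K4me3 peaks. Apart from Kdm5a, these genes were chosen after their values had been seen.

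In gene lists drawn up by function, numbers of covered starts were small, as over all starts (0.416% for H3K79Hcy and 0.996% for KHcy). Of 52 genes of neural tube closure none had its start in an H3K79Hcy peak and 3 had it in a KHcy peak (5.77%): Pax3, a transcription factor of the dorsal neural tube (fold 2.24), Lrp2, an endocytic receptor (2.24), and Pdgfra, a growth factor receptor (2.75). Pax3 and Pdgfra also lay in H3K4me3 peaks. The starts of Cecr2, Smarca4, Dnmt3b and Smurf2 lay in neither list. The study counts Cecr2, Smarca4 and Dnmt3b among its H3K79Hcy peak genes, and for Smarca4 it reports enrichment within the gene body. It also shows peaks in the region of Smurf2. Peaks of these genes away from the start were not considered here. Of 32 genes of homocysteine and folate metabolism none was covered by H3K79Hcy or KHcy, and 2 were covered by H3K4me3.

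Of 63 chromatin genes, Kat5 was covered in both lists and Kdm5a by KHcy. Of 80 transcription factors and markers of neural cells, 1 was covered by H3K79Hcy, Emx1, a homeobox gene of the cortex, with 22 reads and a fold of 2.76. KHcy covered 3, namely Otx2 (2.11), Pax2 (2.02) and Pax3, all 3 also in H3K4me3 peaks, whereas H3K4me3 covered 19 of the 80 (23.8%). Of 49 axon guidance genes only Efnb3, an ephrin ligand, was covered, by KHcy with a fold of 3.36.

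The Hox genes stood out in the H3K4me3 list, with 21 of 39 starts (53.8%). KHcy covered 4 of them, Hoxb6, Hoxb8, Hoxc10 and Hoxd10, with folds of 1.92 to 2.29, and H3K79Hcy covered Hoxb6. Hoxb6 and Hoxb8 lie 10.6 kb apart in the same cluster. Hoxc10 was the member whose start lay outside H3K4me3 peaks, although its KHcy peak of 4200 bp shared 3400 bp with them.

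Among families found by symbol, 5 of 83 genes of cytosolic ribosomal proteins were covered by KHcy (6.02%) and none by H3K79Hcy. These were Rpl32, Rpl4, Rpl9, Rps12 and Rps27a, with folds of 1.95 to 3.36, and Rpl32 and Rpl4 also lay in H3K4me3 peaks. Odorant receptor genes were covered at 3 of 1113 starts by H3K79Hcy (0.270%) and at 11 by KHcy (0.988%), close to the shares over all starts. Of the 13 covered starts 1 lay in an H3K4me3 peak, Olfr381. Histone genes were covered at 2 of 67 starts by H3K79Hcy, Hist2h4 and Hist4h4, and at 1 by KHcy. Predicted genes with Gm or Rik symbols were covered at 30 of 3455 starts by H3K79Hcy (0.868%) and at 35 by KHcy (1.01%), 18 of them in both lists. Of the 24 starts in repeated H3K79Hcy peaks, 20 were of such genes, and of the 26 in repeated KHcy peaks, 17.

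Smaller groups of receptors, enzymes and transporters added single members. H3K79Hcy covered Tas2r125, a bitter taste receptor, with a fold of 4.19 from 20 reads, the solute carriers Slc34a2, Slc35e4 and Slc6a20b, and Speer4b and Speer4e of the Speer family. KHcy covered Cyp1a2 and Cyp26a1, an enzyme that breaks down retinoic acid, the amino acid transporter subunit Slc3a2, Ugt2a1 and the vomeronasal receptors Vmn2r12 and Vmn2r14, the last pair in repeated peaks. Zinc finger genes were covered at 1 of 367 starts by H3K79Hcy, Zfp872, and at 3 by KHcy, Zfp422, Zfp672 and Zfp706. The families with no covered start in either homocysteinylation list had few genes for covered shares of 0.416% and 0.996%, so a count of 0 says little about them. They were the type 1 vomeronasal receptors (202 genes), serpins (60), keratins (51), beta-defensins (41), protocadherins (36), major urinary proteins (21) and Skint genes (11).

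Some peaks held more than 1 start: 8.33% of the KHcy peaks (5.27 to 12.9%) and 3.41% of the H3K79Hcy peaks (1.17 to 9.55%). The intervals overlapped, and the KHcy peaks were also wider, with medians of 2200 against 1200 bp. The share of paired starts over all starts is not given here. Of the 204 KHcy peaks 15 contained exactly 2 starts, and in 13 of these the genes ran in opposite directions, as in Snx17 and Eif2b4 (203 bp apart), Rpl9 and Lias (54 bp), Kdm5a and Ccdc77 (275 bp), Zwilch and Rpl4 (283 bp), Cog4 and Sf3b3 (203 bp) and 1300017J02Rik and Topbp1 (133 bp). The H3K79Hcy list had 1 such peak, at 1810026J23Rik and Yipf2 (57 bp). The KHcy folds of these 6 peaks were 3.36 at Snx17 and at Rpl9, 2.08 at Kdm5a, 3.03 at Rpl4, 2.84 at Cog4 and 2.02 at Topbp1, on both sides of the median of 2.30. The peaks overlapped annotated pairs, and which of the 2 starts carried the reads cannot be told apart from a peak.

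Within the peaks, starts lay somewhat before the middle. A median of 43.1% of a nuclear H3K79Hcy peak and 41.6% of a KHcy peak lay before the start. Summed over nuclear starts, with a peak counted once for each start it held, 39.9% of the H3K79Hcy bases lay before the gene start, 20.7% in its exons, 34.0% in its introns and 5.33% past its end. For KHcy the shares were 40.1%, 18.6%, 37.7% and 3.63%. The lists were alike in this respect. The covered genes were short, with median lengths of 5587 bp for H3K79Hcy and 10882 bp for KHcy against 15420 bp over all protein-coding genes, and 14 and 21 genes lay wholly inside their peak. The lengths include genes in repeated and mitochondrial peaks and are not split by kind.

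Membership near the edge of a peak was a matter of few bases. Of the starts in H3K79Hcy peaks, 8 lay within 50 bp of an end of the peak, and 3 further starts lay outside within the same distance. For KHcy 5 lay inside and 6 outside. Peak ends fell on multiples of 200 bp, so these starts could change sides with a shift of 1 window.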

How the data were processed

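NE4C chromatin was precipitated with 1 antibody per library. According to the submitters' processing notes reads were placed on mm9 and peaks were called with MACS 1.4.2, whereas a figure legend of the study names SICER. For each peak the authors deposited its positions, the count of reads in it and a score, all with no scaling for depth, and the columns where control values would be expected hold only a dash. The lists do not give library totals. Reads inside peaks numbered 209335 (H3K79Hcy), 276864 (KHcy) and 787308 (H3K4me3). Input, IgG and treated cells were not analysed here.

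The deposited score of peaks of 1 window (200 bp) was solved for the Poisson background of each library, on the reading that the score is the Poisson probability of the count on a negative natural log scale. No source used here states this, but each of the 27, 8 and 14 such peaks of a list gave the same background to 3 decimals. The fold was the count of reads over this background, taken as uniform along the genome, with exact Poisson intervals of the count. Peak ends and gene starts were counted from 1. Gene starts came from GENCODE M1, and sequence came from the NCBIM37 genome, which is mm9. Words of 31 bases were counted over the genome on both strands. A stricter score kept peaks scoring more than the natural log of 100 above the lowest score.

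The members and gene lists were chosen with earlier results of these data known. Genes were named by rule: the 30 starts in both lists with the largest smaller fold, the 10 largest folds of each list, covered starts of the gene lists, the widest 3 peaks, peaks with at least 3 starts, and Cecr2, Smarca4, Dnmt3b and Smurf2. The other genes were named after their values were seen. For the printed sequences the rule left out predicted genes (Gm and Rik symbols), and mitochondrial starts and Sfi1, whose stretch runs into annotated exons, were passed over, and 1 further sequence is not reported here. The tools were Python 3.11.15, numpy 2.4.6, pandas 2.3.3, scipy 1.17.1, numba 0.67.0 and matplotlib 3.10.9. Scripts were tested on simulated data.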

Additional observations from a re-analysis of the deposited data

How the results depend on the processing

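The number of covered starts depended on the definitions. For H3K79Hcy it was 53 with the stricter score, 197 with starts within 1000 bp of a peak, 174 with all gene types and 160 with the start of any transcript, in place of 93. For KHcy it was 121, 357, 350 and 362, in place of 223. The starts in both lists numbered 66 within 1000 bp, 86 with all gene types and 15 without peaks of repeated words, in place of 41. The share of H3K79Hcy peaks at gene starts overlapping KHcy was 62.5% with the stricter score (22.2% of all such peaks) and 27.4% without repeated words. Overlap with H3K4me3 was 62.5% (25.9% of all) and 32.3%. The share of KHcy peaks overlapping H3K79Hcy was 16.7% when at least 50% of the peak had to overlap (7.74% of all) and 15.3% without repeated words, and with H3K4me3 it was 42.2% when 50% was required (13.3% of all). The CpG-rich share was 5.38% for H3K79Hcy and 29.6% for KHcy with 500 bp on each side, and 10.8% and 38.1% with limits of 0.6 and 50%. The other 26 values moved by less than their interval or by less than 1.5 times, including those without the mitochondrial genome, which was tried once the data were known. The cause of these changes was not tested, beyond the fewer or more peaks and starts that each definition admits. Depth limits the single starts: most peaks rest on fewer than 50 reads. No paired analysis was possible because each antibody has 1 library.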
